A study of Mus musculus with 15 samples.

Results

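Haematopoietic cytokine receptors carry growth and survival signals from secreted ligands into blood cells, and which of them a cell makes sets the factors it can respond to. Kit, Flt3 and Csf1r are receptor tyrosine kinases, which dimerise on their ligand and phosphorylate themselves. Epor, Csf3r, Csf2rb, Il7r, Il6st and Ifngr1 have no kinase of their own and signal through JAK kinases bound to their tails. The peaks called around these 9 genes were described in HPC-7, a mouse line of early blood progenitors derived from embryonic stem cells and known to be grown with the Kit ligand. The genes were chosen by name, and a peak was assigned to a gene when it overlapped the gene span widened by 50 kb on each side, called its locus below. The 9 loci, of 21900 protein-coding genes, held 155 of 95112 deposited peaks.

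CUT&Tag, in which an antibody brings a transposase that cuts and tags nearby DNA, was run on about 150000 cells per reaction. Control cells, called WT in the titles and shLUC in the descriptions, were profiled with antibodies to H3K4me3 (a histone mark of promoters), to YY1 (a transcription factor) and to SMC3 (a subunit of cohesin). Cells of the genotype shYY1, with a short hairpin RNA against YY1 (shYY1-2 in the descriptions), were profiled for SMC3. All 4 groups had 3 libraries, which the labels' protocol calls biological replicates, and all were the same cell line; the 3 IgG libraries of control cells were not analysed here. No YY1 list of shYY1 cells was used, and how far YY1 fell in them is not known from these data. H3K4me3 lists held 16763 to 17895 peaks, YY1 lists 3750 to 10699, control SMC3 lists 2061 to 4595 and shYY1 SMC3 lists 2631 to 3213. Library 3 was the shortest list for YY1 and for control SMC3. The lists hold positions only, so depth is unknown, and a missing peak can mean little sequencing as well as little target. Of the marker genes checked, H3K4me3 lay within 1000 bp of a start at 11 of 12 early haematopoietic genes (47.7% of all protein-coding genes). It lay there at 0 of 5 pluripotency, 0 of 5 fibroblast, 0 of 5 endothelial, 0 of 4 lymphocyte and 0 of 4 mature myeloid genes. Within 1000 bp of the gene span the counts were 12, 0, 1, 1, 2 and 0 in the same order (52% of all protein-coding genes).

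As background, H3K4me3 marks the starts of genes that are active or ready for transcription. YY1 is a zinc finger factor that binds promoters and enhancers, and cohesin is the ring that extrudes and holds chromatin loops. The 250 bases before the start are printed for 5 of the 7 genes with an entry in the RefSeq table (GRCm38.p6, the assembly of mm10), to show the DNA of these promoters. They are the starts with YY1 and SMC3 (Kit and Ifngr1), with YY1 and little or no SMC3 (Il6st and Epor) and with H3K4me3 alone (Flt3). Capitals mark matches, on either strand, to the letters searched, which were ATGGC and AAGATGGC for YY1, AGATAA for GATA factors, CCGGAAGT for ETS factors and AGGNGGC for the core of the CTCF motif. AAGATGGC contains ATGGC. Each runs 5′ to 3′ along the gene and ends at the base before the start.
Kit, chr5:75574737-75574986, plus strand: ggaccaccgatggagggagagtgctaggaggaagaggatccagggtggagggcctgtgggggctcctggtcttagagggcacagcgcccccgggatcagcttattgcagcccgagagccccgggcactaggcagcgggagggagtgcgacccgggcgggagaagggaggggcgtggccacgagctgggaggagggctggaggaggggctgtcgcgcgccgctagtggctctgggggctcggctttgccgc
Ifngr1, chr10:19591699-19591948, plus strand: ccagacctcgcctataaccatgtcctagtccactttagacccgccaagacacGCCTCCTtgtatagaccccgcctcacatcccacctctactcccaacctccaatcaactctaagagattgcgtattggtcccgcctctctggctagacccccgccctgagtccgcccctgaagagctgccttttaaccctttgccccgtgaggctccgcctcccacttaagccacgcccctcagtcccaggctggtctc
Il6st, chr13:112463820-112464069, plus strand: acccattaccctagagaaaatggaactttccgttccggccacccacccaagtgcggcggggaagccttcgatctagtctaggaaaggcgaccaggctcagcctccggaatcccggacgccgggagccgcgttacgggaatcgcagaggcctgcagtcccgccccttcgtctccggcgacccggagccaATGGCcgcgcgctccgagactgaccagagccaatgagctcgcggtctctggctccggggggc
Epor, chr9:21963577-21963826, minus strand: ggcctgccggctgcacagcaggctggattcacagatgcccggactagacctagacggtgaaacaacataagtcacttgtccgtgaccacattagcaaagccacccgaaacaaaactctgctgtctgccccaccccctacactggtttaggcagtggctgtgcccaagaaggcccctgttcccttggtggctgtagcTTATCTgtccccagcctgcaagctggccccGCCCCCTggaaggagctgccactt
Flt3, chr5:147400490-147400739, minus strand: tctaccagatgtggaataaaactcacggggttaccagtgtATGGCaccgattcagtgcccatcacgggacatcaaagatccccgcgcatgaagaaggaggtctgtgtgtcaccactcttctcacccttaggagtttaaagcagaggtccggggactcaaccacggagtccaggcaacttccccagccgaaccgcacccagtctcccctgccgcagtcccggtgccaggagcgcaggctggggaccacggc

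The Kit sequence held none of these letters and had a GC content of 70.8%, the highest of the 7. Il6st and Flt3 each held ATGGC once, at -62 to -58 and at -210 to -206 from the start, a match found in 32.9% of 32817 promoters of this length. Epor held AGATAA on the opposite strand at -54 to -49 (9.99% of promoters) and the CTCF letters at -24 to -18 (25% of promoters). Ifngr1 held the CTCF letters at -198 to -192. Csf3r and Il7r held none, and neither AAGATGGC (1.56% of promoters) nor CCGGAAGT (2.88%) was found in any of the 7. The Flt3 match was under no peak, since the H3K4me3 peaks there reached only to -196. A match is a stretch of letters and not evidence of binding.

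A region was called reproducible when peaks of at least 2 of the 3 libraries of a target merged into it. Every receptor locus had reproducible H3K4me3, against 69.9% of all protein-coding genes. YY1 was found in 7 of 9 loci (56.6% of all genes). SMC3 was found in 3 loci in control cells (35.7%; Kit, Epor and Ifngr1) and in these and Flt3 in shYY1 cells (28.5%). With YY1 required in 3 of 3 libraries the number of loci was 4, and it was also 4 without YY1 library 1 or without YY1 library 2. At the genes' own starts, within 1000 bp, H3K4me3 was present at 7 of 9 (47.7% of all genes), YY1 at 4 (29.2%), and SMC3 at 2, Kit and Ifngr1, in control cells (14.1%) as in shYY1 cells (10.8%). Among all genes with H3K4me3 at a start, 61.1% had YY1 there, 29.6% had SMC3 in control cells and 22.6% had it in shYY1 cells. The 7 receptor genes with H3K4me3 gave 4, 2 and 2. For Csf1r and Csf2rb, whose start is not in the table, either end of the gene span was taken as the start.

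**Figure D1:**
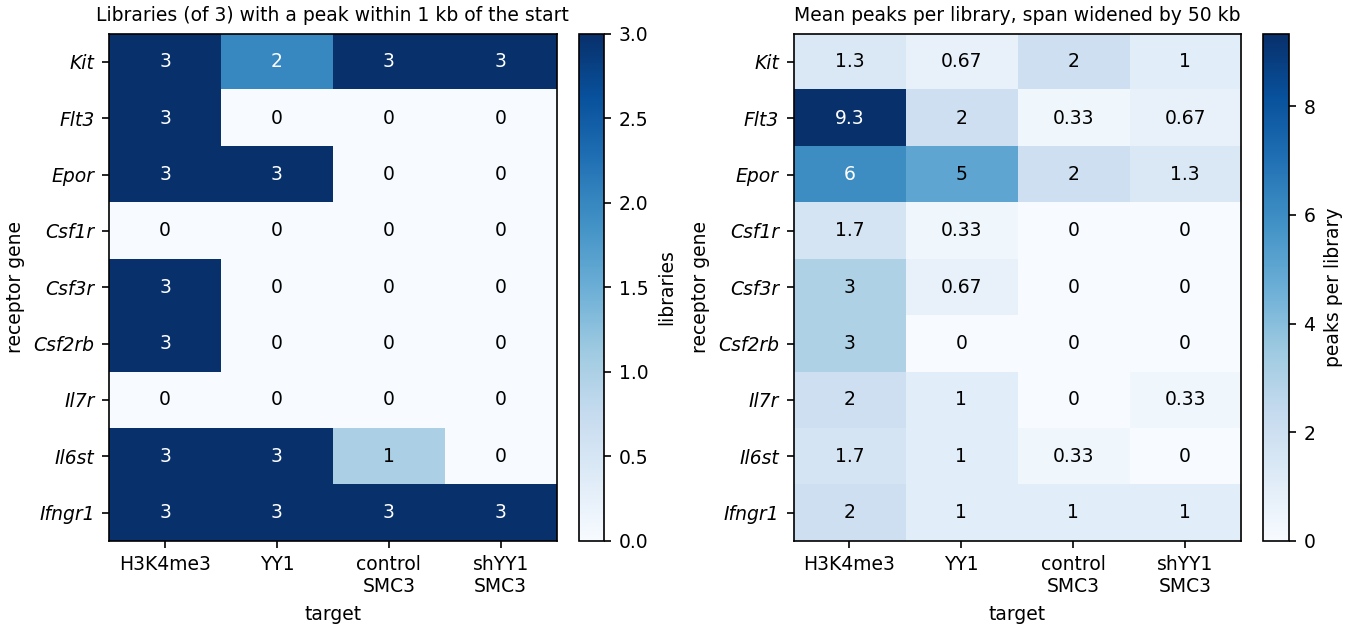
The left grid gives, for each receptor gene (rows) and target (columns), how many of 3 libraries had a peak within 1 kb of the start, and the right grid gives the mean number of peaks per library in the span widened by 50 kb. Kit and Ifngr1 are the rows with SMC3 in 3 libraries of both arms at the start, while Csf1r and Il7r have no peak of any target there.

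The 155 peaks merged into 32 regions over all targets, of which 29 had reproducible H3K4me3 and 13 reproducible YY1. Each reproducible YY1 region also had reproducible H3K4me3. In 16 regions H3K4me3 was the only reproducible target, and in 8 it came with reproducible YY1 and without reproducible SMC3. Some of these had an SMC3 peak in 1 library. H3K4me3, YY1 and control SMC3 were together in 4 regions, 3 of which also had shYY1 SMC3. Of the 32 regions, 7 lay within 1000 bp of the start of a receptor gene, 13 within 1000 bp of the start of another gene only, and 12 farther from any start. Of the 13 YY1 regions, 4 were at receptor starts, 7 at starts of neighbouring genes and 2 farther from any start.

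Among the receptor tyrosine kinases, Kit, the receptor for stem cell factor, carried all targets at its start (chromosome 5, gene span 75574987 to 75656722). H3K4me3 peaks there covered 1668 bp in library 1, 746 and 431 bp as separate peaks in library 2, and 1326 bp in library 3. YY1 peaks of 293 bp (library 1) and 425 bp (library 2) lay across the start, and library 3, the shortest YY1 list, had none. SMC3 peaks measured 311, 361 and 225 bp in the control libraries and 324, 333 and 249 bp in the shYY1 libraries. Their ranges overlapped, and every one of the 6 SMC3 summits lay between -16 and 110 bp from the start. A merged SMC3 region with a peak in all 6 libraries, as here and at Ifngr1, was 21.7% of all. The mean SMC3 length was 299 ± 68.8 bp in control and 302 ± 46.1 bp in shYY1 (SD, n = 3), a difference of 3 bp (exact two-sided permutation p = 1, adjusted p = 1 over 1268 genes with SMC3 at a start in all 6 libraries). Over those genes the median difference was -23 bp. Control lay wholly above shYY1 in 7.33% of them and wholly below in 1.03%, and Kit was in neither group.

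A second SMC3 region of the Kit locus was called in control cells and not in shYY1 cells. It spanned 75660283 to 75660681 on chromosome 5, 3561 bp beyond the end of the gene and 85.3 kb from its start. Control SMC3 peaks there measured 396 bp in library 1, 355 bp in library 2 and 187 bp in library 3, at the 83.9, 78.7 and 20.6 percentiles of peak length of their lists. None of the 3 shYY1 libraries had a peak, and neither did any of the 3 YY1 or 3 H3K4me3 libraries. The nearest annotated start, of the long noncoding RNA gene Gm32558, was 14571 bp away. Control library 3 held 2061 peaks, against 2631 to 3213 in the shYY1 lists, and had the peak. The part of depth or list length in these calls was not tested.

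Over all merged SMC3 regions, 40 of 6175 (0.648%) were called in 3 control and 0 shYY1 libraries, and 1 (0.0162%) the reverse. Of 3627 reproducible control SMC3 regions, 34 (0.937%) had no YY1 and no H3K4me3 peak in any library. Only 5 of the 34 were called in 3 control libraries, and 2 of these 5, the region beyond Kit among them, had no shYY1 peak. The peak count of the Kit locus was thus 2 in each control library and 1 in each shYY1 library, a difference of -1 (0 within the gene span alone, which leaves out this region). The groups did not overlap, and the exact two-sided permutation p was 0.1, the smallest that 3 against 3 libraries can give (adjusted p = 1 over 10821 genes with an SMC3 peak in the locus). Every control library was above every shYY1 library in 1.1% of these genes, and the reverse held in 0.00924%. With only the longer 50% of the peaks of each list, control library 3 lost both of its Kit peaks, and the difference became -0.33 with overlapping groups (exact permutation p = 1, adjusted p = 1).

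Flt3, the receptor for FLT3 ligand on early progenitors, had the most H3K4me3 regions of the 9 loci, 9, and no YY1 or SMC3 at its start (chromosome 5, 147330741 to 147400489). The start carried H3K4me3 peaks of 588, 615 and 479 bp in libraries 1 to 3. Inside the gene, H3K4me3 lay 7.19 and 33.7 kb from the start in all 3 libraries. A short region 59.0 kb from the start had H3K4me3 in libraries 2 and 3 (176 and 226 bp) and YY1 in libraries 1 and 2 (162 and 253 bp). The other reproducible YY1 region lay 17.9 kb before the start, at the noncoding gene D5Ertd605e, with YY1 peaks of 151 and 442 bp in libraries 1 and 2.

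This D5Ertd605e region was called for SMC3 in shYY1 libraries 1 and 3 and in no control library. Both shYY1 peaks were among the shortest of their lists, 155 bp at the 5.82 percentile and 129 bp at the 0.330 percentile, and with a 50% overlap asked for they did not merge, which left 3 loci with shYY1 SMC3. Regions with at least 2 shYY1 and 0 control libraries made up 0.891% of all merged SMC3 regions, and those with at least 2 control and 0 shYY1 libraries 7.98%. A 169 bp control SMC3 peak in library 2 was the only other SMC3 call. It lay inside an H3K4me3 region whose nearer edge was 831 bp from a start of Urad. The Flt3 locus thus had 0, 1 and 0 SMC3 peaks in control and 1, 0 and 1 in shYY1 libraries, groups that overlapped (difference 0.33, exact permutation p = 1, adjusted p = 1). With the span widened by 10 kb only, which leaves out the D5Ertd605e region, the difference was -0.33. Leaving out library 2 of either arm gave 0.67, and leaving out library 1 or 3 of either arm 0.17.

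Csf1r, the receptor for the macrophage growth factor CSF1, had no peak of any target within 1000 bp of either end (chromosome 18, 61105572 to 61131139). A region 2868 bp inside the lower end of the span had H3K4me3 in libraries 2 and 3 (264 and 380 bp), and YY1 in library 2 alone (304 bp). The other H3K4me3 region of the locus lay at the ends of Hmgxb3 and LOC108168367, with peaks of 1544, 1389 and 1434 bp in libraries 1 to 3. No SMC3 peak of either arm fell in this locus.

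**Figure D2:**
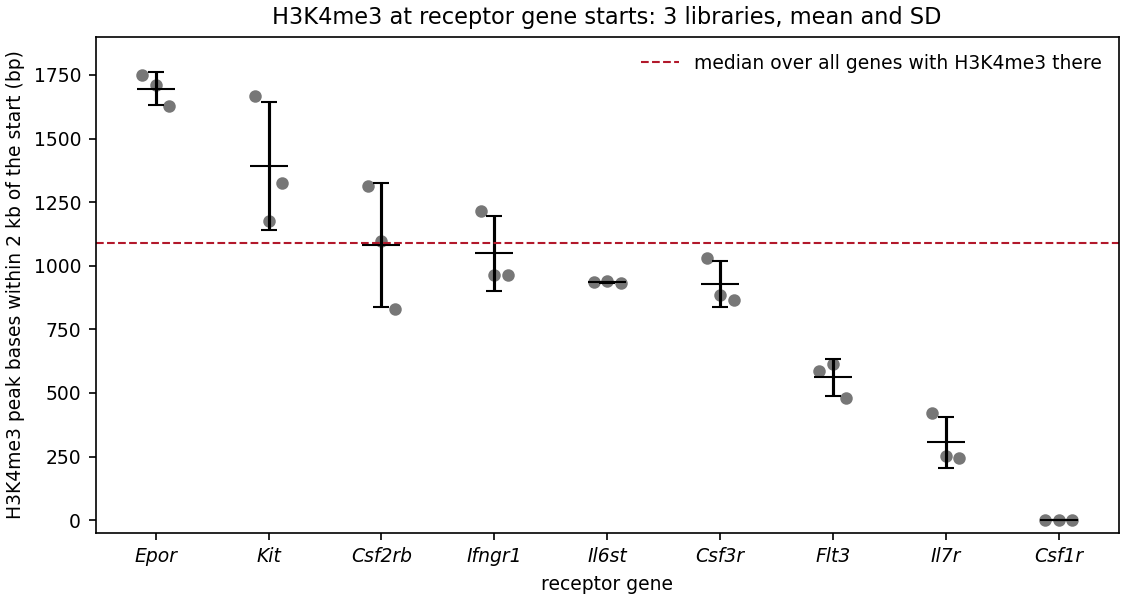
Points give the H3K4me3 peak bases (bp) within 2 kb of the start of each receptor gene in 3 libraries, with the mean and SD in black, and the dashed line is the median of 1091 bp over all genes with H3K4me3 there. Epor (1627 to 1751 bp) and Kit (1177 to 1668 bp) lie above the line in every library, and Flt3, Il7r and Csf1r lie lowest.

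The extent of H3K4me3 ordered the receptor genes. Within 2 kb of the start, H3K4me3 peaks covered 1696 ± 63.3 bp at Epor, 1390 ± 252 bp at Kit, 1082 ± 242 bp at Csf2rb and 1048 ± 146 bp at Ifngr1 (SD, n = 3). They covered 935 ± 2.52 bp at Il6st, 928 ± 89.1 bp at Csf3r, 561 ± 72.0 bp at Flt3, 306 ± 99.1 bp at Il7r and 0 bp at Csf1r. Over 10760 genes with any H3K4me3 there the median was 1091 bp, and Epor stood at the 91.5 percentile, Kit at the 77.2, Flt3 at the 7.51 and Il7r at the 2.98. Library ranges overlapped between the neighbours Epor and Kit, Kit and Csf2rb, Csf2rb and Ifngr1, and Il6st and Csf3r. They did not overlap between Ifngr1 and Il6st, Csf3r and Flt3, or Flt3 and Il7r.

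Of the receptors that signal as pairs of a single chain, Epor, which receives erythropoietin, had the broadest H3K4me3 and YY1 in 3 of 3 libraries (chromosome 9, 21958897 to 21963576). H3K4me3 peaks measured 1751, 1711 and 1627 bp. The YY1 peaks were 234, 361 and 191 bp long, and their summits lay 1010, 1011 and 1011 bp downstream of the start, inside the gene. H3K4me3 summits lay there too, at 977, 1033 and 971 bp. The YY1 peaks thus lie outside the printed sequence, and its letters for GATA and CTCF are about 1 kb from the YY1 summits. No SMC3 peak of either arm was called at Epor.

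The Epor locus is crowded, and its SMC3 peaks belonged to neighbours. A region at the shared start of Ccdc151 and Prkcsh (22002432 to 22003782, 38.9 kb from the Epor start) was called in all 12 libraries. In 9 of its 12 peaks the summit was the same base, 22002871, including all H3K4me3 and YY1 peaks, control SMC3 libraries 1 and 2 and shYY1 library 2. A region at Swsap1 and Gm45914, 7.20 kb from the Epor start, had H3K4me3 and YY1 in 3 libraries, SMC3 in control libraries 2 and 3 (277 and 244 bp) and none in shYY1. The locus had 2, 2 and 2 SMC3 peaks in control and 1, 2 and 1 in shYY1 libraries, a difference of -0.67 (exact permutation p = 0.4, adjusted p = 1). Among these, a 173 bp peak of control library 1 at Rab3d and a 163 bp peak of shYY1 library 2 at Tmem205 were called in no other SMC3 library. They stood at the 21.7 and 19.5 percentiles of length of their lists. The groups overlapped, since shYY1 library 2 also had 2 peaks, the Tmem205 peak among them. In covered base pairs they did not overlap, with 494, 532 and 408 bp in control and 202, 396 and 348 bp in shYY1 libraries (difference -163 bp, exact permutation p = 0.1, adjusted p = 1). Control lay wholly above shYY1 in covered base pairs in 4.89% of the 10821 genes, Kit and Epor among them, and wholly below in 0.444%.

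**Figure D3:**
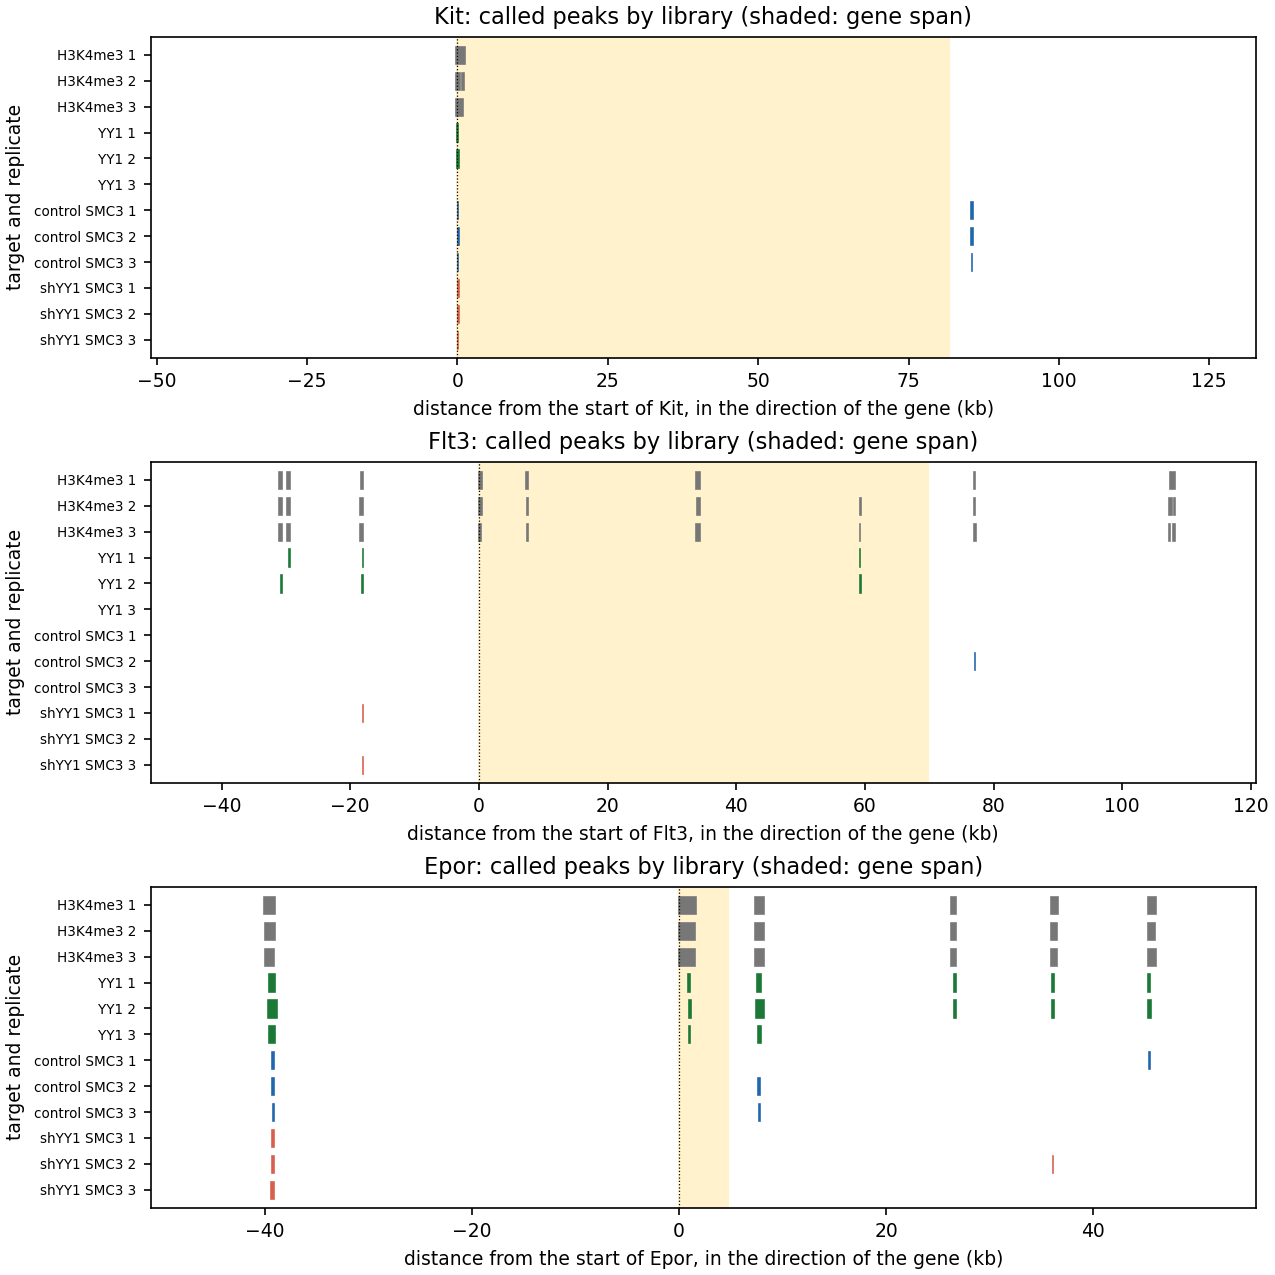
Called peaks (bars) of 12 libraries are drawn by distance in kb from the start of Kit, Flt3 and Epor, in the direction of each gene, with the gene span shaded. The 3 control SMC3 peaks 85.3 kb from the Kit start have no peak of another target or of shYY1 below or above them, and the Epor map shows SMC3 only away from the gene.

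Csf3r, the receptor for the granulocyte growth factor CSF3, had H3K4me3 alone at its start (chromosome 4, 126023441 to 126044975). Peaks measured 1030, 886 and 867 bp, and the noncoding gene Gm32908 starts in the same region. The only YY1 of the locus, in libraries 1 and 2 (308 and 492 bp), was at Mrps15, 22.1 kb from the start, and no SMC3 peak was called. Csf2rb encodes the beta chain shared by the receptors for IL-3, IL-5 and GM-CSF. Its locus (chromosome 15, 78325800 to 78351001 before widening) was the only locus of the 9 with neither YY1 nor SMC3 in any library. H3K4me3 covered its lower end with 1315 bp in library 1, 836 and 263 bp in library 2 and 831 bp in library 3. The neighbouring Csf2rb2 had H3K4me3 of 1330, 758 and 937 bp in libraries 1 to 3.

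Il7r encodes the alpha chain of the receptor for IL-7, a growth factor of lymphocyte precursors. H3K4me3 lay 1051 to 1494 bp downstream of its start (chromosome 15, 9506159 to 9529941), in short peaks of 420, 252 and 245 bp, and no other target was called at the gene. The YY1 of the locus was 65.9 kb from the start and 27452 bp from the nearest start, of Capsl, in 3 of 3 libraries (409, 335 and 209 bp), and 1 shYY1 SMC3 peak of 325 bp in library 2 lay in the same region.

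Il6st encodes gp130, the signalling chain shared by the receptors for IL-6, LIF and related cytokines (chromosome 13, 112464070 to 112506860). H3K4me3 peaks at its start measured 935, 938 and 933 bp, and YY1 peaks 140, 326 and 260 bp. The YY1 summits lay at -39, -45 and -47 bp from the start, which is 21, 15 and 13 bp from the centre of the ATGGC letters in the printed sequence. Among 1399 promoters with ATGGC inside YY1 peaks of at least 2 libraries, every YY1 summit was within 25 bp of a match in 9.15%. SMC3 was called in control library 1 alone, in a peak of 132 bp at the 2.76 percentile of length, with its summit 16 bp from the same centre. The other 5 SMC3 libraries had none, and the groups overlapped (difference -0.33, exact permutation p = 1, adjusted p = 1).

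Ifngr1, the ligand-binding chain of the interferon gamma receptor, was the only gene of the 9 with every target in every library at its start (chromosome 10, 19591949 to 19610229). H3K4me3 peaks measured 1217, 964 and 964 bp and YY1 peaks 537, 648 and 468 bp. The mean YY1 cover of 551 ± 90.8 bp stood at the 84.8 percentile of 8043 genes with YY1 within 2 kb of a start. Kit stood at the 40.9 percentile, with a mean of 239 ± 218 bp that includes 0 bp in library 3. SMC3 peaks were 377, 334 and 286 bp in control and 352, 311 and 346 bp in shYY1 libraries. The ranges overlapped, with means of 332 ± 45.5 bp and 336 ± 22.1 bp (SD, n = 3) and a difference of 4 bp (exact permutation p = 1, adjusted p = 1 over 1268 genes). YY1 libraries 2 and 3 and control SMC3 library 2 had their summit at the same base, 19591761, 7 bp from the centre of the CTCF letters of the printed sequence. The other summits were farther from it, at 88 bp for YY1 library 1, 94 and 133 bp for control SMC3 libraries 1 and 3, and 133, 148 and 36 bp for shYY1 libraries 1 to 3. Among 768 promoters with these letters inside control SMC3 peaks of at least 2 libraries, every control SMC3 summit was within 25 bp of a match in 10.5% and any summit in 43.2%. Among 1711 promoters with the letters inside YY1 peaks of at least 2 libraries, every YY1 summit was that near in 7.54% and any in 31.3%. A second H3K4me3 region, 21.1 kb from the start, had neither YY1 nor SMC3.

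**Figure D4:**
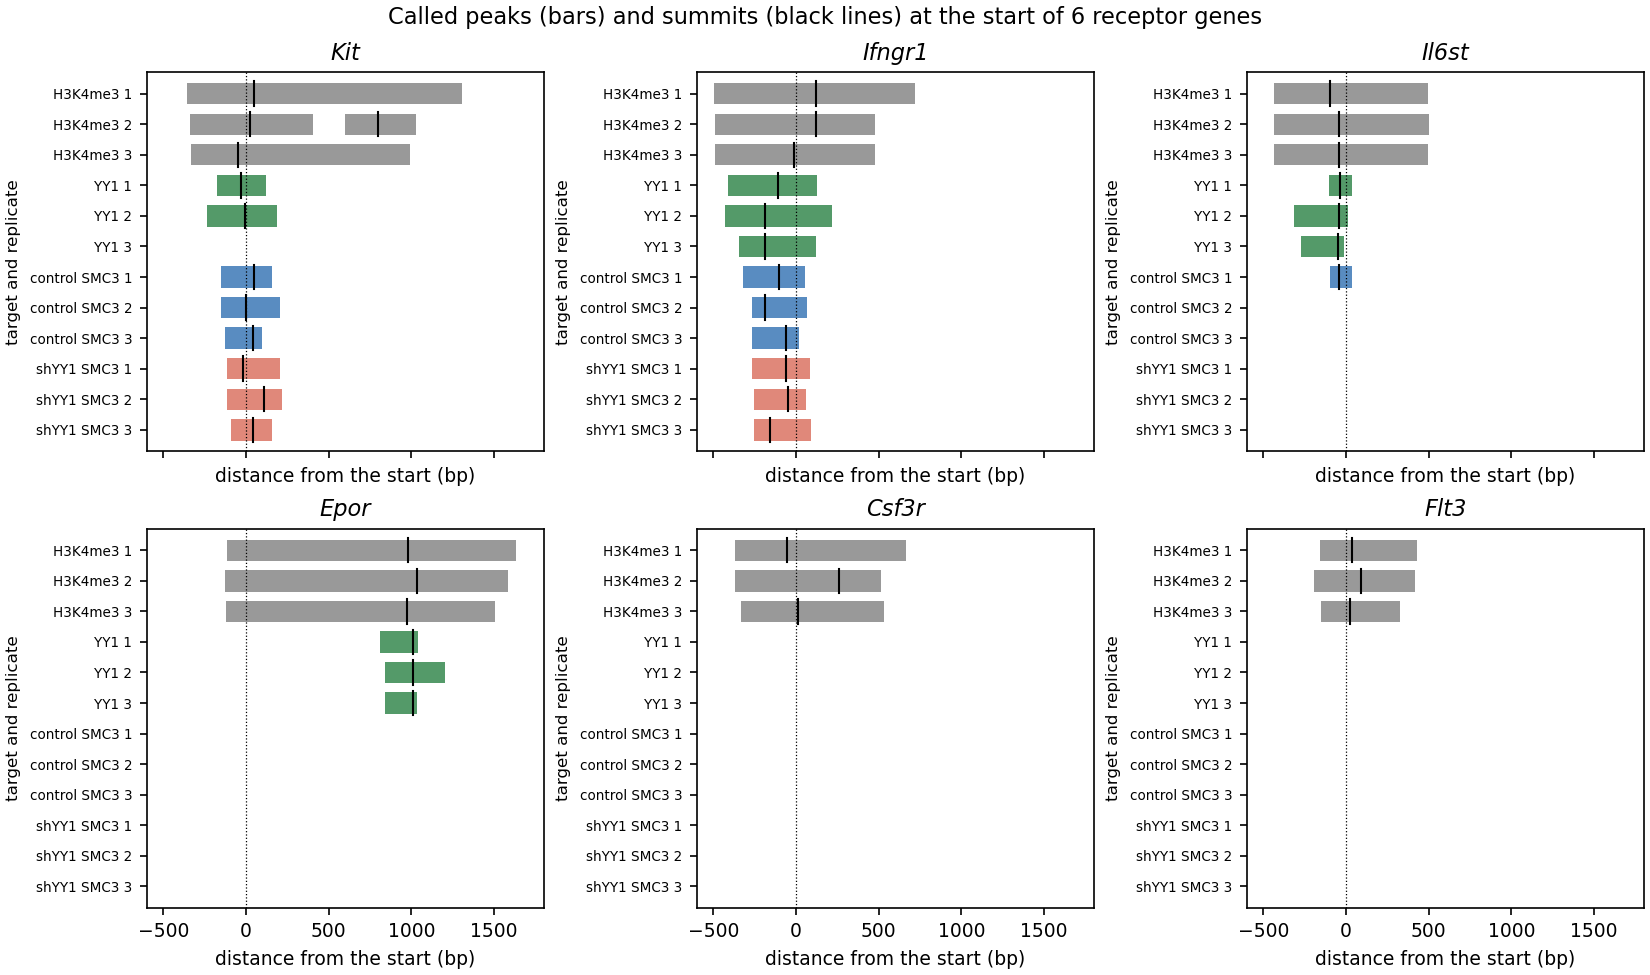
Bars are called peaks and black lines their summits, by distance in bp from the start of 6 receptor genes, for 12 libraries from top to bottom. YY1 and SMC3 peaks lie across the start of Kit and Ifngr1, with their summits before the start at Ifngr1 and Il6st, whereas the YY1 peaks of Epor lie about 1 kb inside the gene.

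Summits that fell on the same base under different antibodies were common over the genome. A YY1 and an SMC3 summit coincided in 38.6% of 5631 joint regions with both, and in 2 of 9 such regions of the receptor loci. For H3K4me3 and SMC3 the share was 26% of 5496 regions, and 1 of 10 in the receptor loci. The part of cutting without the antibody in these calls was not tested.

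Over the 9 loci together, control SMC3 libraries had 6, 6 and 5 peaks and shYY1 libraries 4, 5 and 4, a difference in means of -1.33 that is given as a description. As a share of each list these were 0.133, 0.131 and 0.243% in control and 0.152, 0.156 and 0.132% in shYY1, with overlapping ranges. Csf1r, Csf3r and Csf2rb had no SMC3 peak in any library. Of the 6 receptor loci with an SMC3 peak, 3 had a lower mean in shYY1, 2 a higher mean and 1 the same, with a median difference of -0.17. Of the 10821 genes with an SMC3 peak, 53.6% were lower, 16.1% higher and 30.3% equal, with a median of -0.33. No gene passed an adjusted 0.05 in the exact permutation test, and 0 had an unadjusted p under 0.05, which this design cannot reach.

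**Figure D5:**
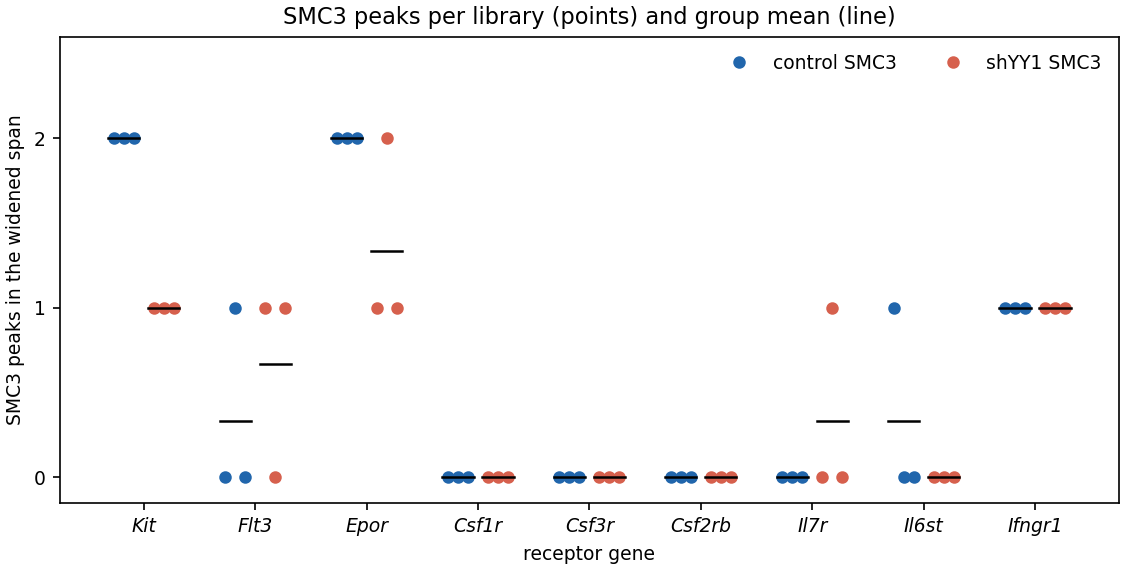
Points give the SMC3 peaks in the widened span of each receptor gene in 3 control and 3 shYY1 libraries, with the group mean as a line. Kit is the only gene whose groups do not overlap, at 2 against 1 peak in every library.

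The genes whose peak cover over the 12 libraries was nearest to that of the Kit locus, by Euclidean distance of log2(bp + 100) and outside chromosome 5, were Adhfe1 and Rrs1 (distance 1.39 for both, as neighbours that share their peaks), Sh3glb1 (1.44), Clca3a1 (1.45) and Clrn3 (1.45). None of them had YY1 in library 3, as in the Kit locus. All 12 libraries entered the distance, so likeness in any library was part of the choice of these genes. Their SMC3 cover in control libraries 1 and 2 was 301 to 412 bp, against 707 and 716 bp in the Kit locus with its second region. In control library 3 it was 261 to 367 bp, against 412 bp in the Kit locus.

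The ligands, partner receptors and signalling proteins of these receptors were counted the same way. H3K4me3 lay within 1000 bp of a start at 4 of 16 ligand genes, 12 of 19 partner and related receptors and 23 of 23 signalling genes (47.7% of all genes). YY1 was there at 1, 6 and 13 of them (29.2% of all genes), SMC3 at 0, 2 and 7 in control cells (14.1%) and at 0, 2 and 5 in shYY1 cells (10.8%). The Kit ligand gene Kitl and the erythropoietin gene Epo had no H3K4me3 at a start, and neither did Kdr and Pdgfra, the receptor genes beside Kit on chromosome 5. Flt3l, Csf1, Il6 and Il11 were the ligand genes that had it.

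Within 1000 bp of the gene span, reproducible control SMC3 lay at 1 ligand gene, 5 partner or related receptors and 8 signalling genes (16.4% of all genes), and shYY1 SMC3 at 0, 4 and 6 (12.4%). The ligand gene was Lif, with peaks in 3 control libraries and 1 shYY1 library spread over 2 regions. Among the receptors, Crlf2, the partner of Il7r in the TSLP receptor, Flt1, a VEGF receptor, and Ifnar1, a chain of the type I interferon receptor, had SMC3 in 3 libraries of both arms. The Flt1 peaks lay inside the gene, and the region called in all 6 libraries was 114340 bp from its start. Il3ra, which pairs with Csf2rb, had it in 3 control libraries and 2 of shYY1, and Pdgfrb in 2 and 1.

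Among the signalling genes, Stat3, the main STAT downstream of gp130, had SMC3 in 3 libraries of both arms at its start. The adaptor gene Shc1 had it in 3 control and 2 shYY1 libraries, in a region that also lies within 1000 bp of the start of Cks1b. Sh2b3, which encodes an adaptor that restrains cytokine signalling, had SMC3 in 2 and 3, in a region 831 bp from its start. Sos1, a Ras exchange factor, had SMC3 in 2 and 3, in a region inside the gene and 11716 bp from its start. Socs1, a feedback inhibitor of JAK kinases, had SMC3 at its start in 2 and 2, and Cblb, a ubiquitin ligase, in 2 and 1. Stat5a, a STAT downstream of Epor and Csf2rb, had SMC3 at its start in 3 control and 0 shYY1 libraries. Cbl, another ubiquitin ligase gene, had it in 2 and 0. Of all merged SMC3 regions, 0.648% were called in 3 control and 0 shYY1 libraries, and 7.98% in at least 2 control and 0 shYY1 libraries. Stat5a and Cbl come after the first 6 of the list and were added after their values were seen. The naming rule asked for reproducible control SMC3, so a gene with SMC3 reproducible only in shYY1 cells was left out. Thus not all signalling genes counted for shYY1 SMC3 (5 at a start, 6 within 1000 bp of the span) are named.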

How the data were processed

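Of 15 CUT&Tag libraries, the peak lists of 12 were read. The tools, per the submitters' processing notes, were MACS2 2.2.9.1, Picard 3.1.1, Bowtie2 2.5.1 and cutadapt 4.5, with the build mm10. Their settings, the peak threshold and any use of IgG are not stated in these sources. Per the file headers, the deposited values are peak starts, ends and summit offsets in base pairs, 1 list per library, with no score. Starts were read as counted from 0 and are given from 1.

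Peaks of a target sharing at least 1 bp were merged. Gene spans, starts and sequences came from RefSeq tables of GRCm38.p6; all 9 receptor genes matched, and 7 had a promoter entry. Control and shYY1 SMC3 were compared by permuting libraries exactly (two-sided, 20 assignments), with p adjusted over all genes by Benjamini-Hochberg (Python 3.11.15). The calculations were tested on simulated data. The p-values measure the spread between libraries, which the labels call biological replicates. Abcam is named in the description of SMC3 library 1 of both arms and of no other SMC3 library. The receptor genes, related lists and motifs were chosen with earlier results of these data known. Related genes were named when a reproducible control SMC3 region lay within 1000 bp of the span, at most 6 per list, plus the 2 remaining signalling genes, Stat5a and Cbl; all 9 receptors were named. The planned higher peak score was replaced by the longer peaks of each list, since no score is given. The result of 1 further marker list is not reported here.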

Additional observations from a re-analysis of the deposited data

How the results depend on the processing

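No difference between control and shYY1 SMC3 passed a threshold in any setting: the smallest unadjusted exact permutation p was 0.1 and the smallest adjusted p 0.832. Of 166 recomputed values, 142 were counted as kept, 23 moved and 1 reversed, and the cause was not tested. A kept value held its direction (for the sum over 9 loci, stayed within the spread between libraries, and for counts of loci, within 1.5 times). For that sum in covered base pairs only the direction was checked. Csf1r, Csf3r and Csf2rb have no SMC3 peak, so their values were 0 and counted as kept in every setting. No setting could give an unadjusted p under 0.05, so no value could change its side of the threshold. Keeping a direction does not mean an equal size. The YY1 count of 7 loci became 4 with 3 of 3 libraries required and 2 with the longer 50% of the peaks of each list, and ranged from 4 (without library 1 or 2) to 7 when a library was left out. The shYY1 SMC3 count of 4 became 2 with a flank of 0 or 10 kb. With a flank of 0 kb, the differences of Kit, Flt3, Epor and Il7r became 0 and that over all 9 loci -0.33. With 10 kb, Flt3 reversed to -0.33, Il7r became 0 and the 9 loci -2.33. With the longer peaks Kit went from -1 to -0.33 (exact permutation p = 1) and its groups overlapped, though it counted as kept by its direction. In that setting Epor and the 9 loci became -0.33, and Flt3 and Il6st 0. With 2061 longest peaks per library Epor became -0.33, and Flt3 and Il6st were 0 there and without both libraries whose description names Abcam. In covered base pairs Ifngr1 differed by 4 and Epor by -163, with an exact permutation p = 0.1 for Epor. Leaving out a library gave 0 (without shYY1 library 2) to 0.5 for Il7r, -0.5 to 0 (without control library 1) for Il6st, 0.17 (without library 1 or 3 of either arm) to 0.67 (without library 2 of either arm) for Flt3, -1 (without shYY1 library 2) to -0.5 for Epor, and -1 in each case for Kit. With the replicate block the Kit difference stayed -1 (exact permutation p = 0.25, the smallest 3 pairs can give) and no call changed. Same-numbered SMC3 libraries correlated at -0.0335, 0.0399 and -0.0291 in their deviations. Such small counts cannot decide whether the numbers pair the libraries, and this is not known from these data. The number of peaks called, from 2061 to 4595 for SMC3, limits what a missing peak can show.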
